A study of Mus musculus with 9 samples.

Results

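The genes described are 9 regulators of RAS and RAP GTPases: the RAS GTPase-activating protein (GAP) genes Nf1, Rasa1, Rasa2, Rasa3 and Rasal3, and the RAS guanyl-releasing protein genes Rasgrp1, Rasgrp2, Rasgrp3 and Rasgrp4. They were taken by symbol from a table of RNA-sequencing counts for 24421 gene symbols, where each had 1 row, and all 9 were among the 13270 genes with enough counts to be tested. The libraries come from mouse bone marrow of the C57BL/6 background, depleted of lineage-positive cells and grown for 5 days with interleukin 3, interleukin 6 and stem cell factor into cells that the labels call myeloid blast-like. There are 3 groups of 3 libraries: wild-type (WT) cells given vehicle, Tet2-/-Flt3ITD cells given vehicle, and Tet2-/-Flt3ITD cells given SHP099 for 24 h, at a dose that the labels do not state. Tet2-/-Flt3ITD cells, called mutant cells from here, are labelled as lacking Tet2, which encodes a DNA demethylating enzyme, and as carrying the activating Flt3 internal tandem duplication, Flt3 being a receptor tyrosine kinase gene. The 3 mutant cultures were each set up from an individual mouse and each gave a vehicle and an SHP099 library, while no individual mice are named for the WT cultures.

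RAS and RAP proteins are switches that are on when bound to GTP. GAPs turn them off by speeding up GTP hydrolysis, and guanine nucleotide exchange factors such as SOS and the RASGRP proteins turn them on. Several RASGRP proteins bind diacylglycerol, the lipid that phospholipase C releases at the membrane. SHP099 inhibits the phosphatase SHP2 (gene Ptpn11) at an allosteric site, and SHP2 passes signals from receptor tyrosine kinases such as FLT3 to RAS. In blood cells, loss of NF1 is a cause of juvenile myelomonocytic leukaemia, and RASA3 and RASGRP2 act in opposite directions on RAP1 in platelets.

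Total counts ran from 27242168 to 45810089 per library. Tet2 stood at 31.8 to 34.8 CPM (counts scaled to library size) in the WT libraries, at 14.7 to 17.0 CPM in mutant vehicle and at 10.9 to 13.2 CPM in mutant SHP099 libraries; a count per gene does not show which part was deleted. All 9 genes listed as defining myeloid blasts, among them Mpo, Spi1 and Ptprc, were at 1 CPM or more in every group. Of the 9 T and NK cell markers in the table, 6 were under 1 CPM in each group, and of 6 B cell markers 5 were, with Pax5 at 0 in every library. SHP099 replicate 3 stood apart: its counts differed from those of the other SHP099 libraries with a chi-square per degree of freedom of 88.6 and 91.1, against 8.89 to 20.4 for every other pair of libraries of 1 group. For the 9 genes, the change with SHP099 and the calls of treated mutant against WT cells are therefore also given without it.

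The 9 genes spanned a wide range of levels. In RPKM, CPM divided by the length in kilobases of the longest coding transcript, the order in WT cells was Rasgrp2 at 131, Rasa3 at 69.4, Rasal3 at 23.1, Rasgrp4 at 15.3, Rasa1 at 10.6, Rasa2 at 10.1, Nf1 at 1.60, Rasgrp1 at 0.286 and Rasgrp3 at 0.0897 RPKM. Rasa1 and Rasa2 were neighbours in that order, at 10.6 against 10.1 RPKM in WT cells, 11.8 in both in mutant vehicle cells and 10.5 against 7.19 in SHP099-treated cells. Distances between neighbours depend on the length used. Per kilobase of all annotated exon sequence, Rasa1 stood at 6.59 and Rasa2 at 3.71 RPKM in WT cells, and Rasa3, at 60.0 RPKM, lay above Rasgrp2, at 24.2 RPKM. Rasgrp4 stood at 11.1 RPKM by that measure, so Rasgrp2 led it by less than on the transcript scale. On the transcript scale Rasgrp2 held 88.6% to 89.8% of the RPKM of the 4 RASGRP genes in the 3 groups, and Rasgrp4 most of the rest. Rasa3 held 60.4% of the RPKM of the 5 GAP genes in WT cells, 51.3% in mutant vehicle cells and 59.8% in SHP099-treated cells.

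**Figure D1:**
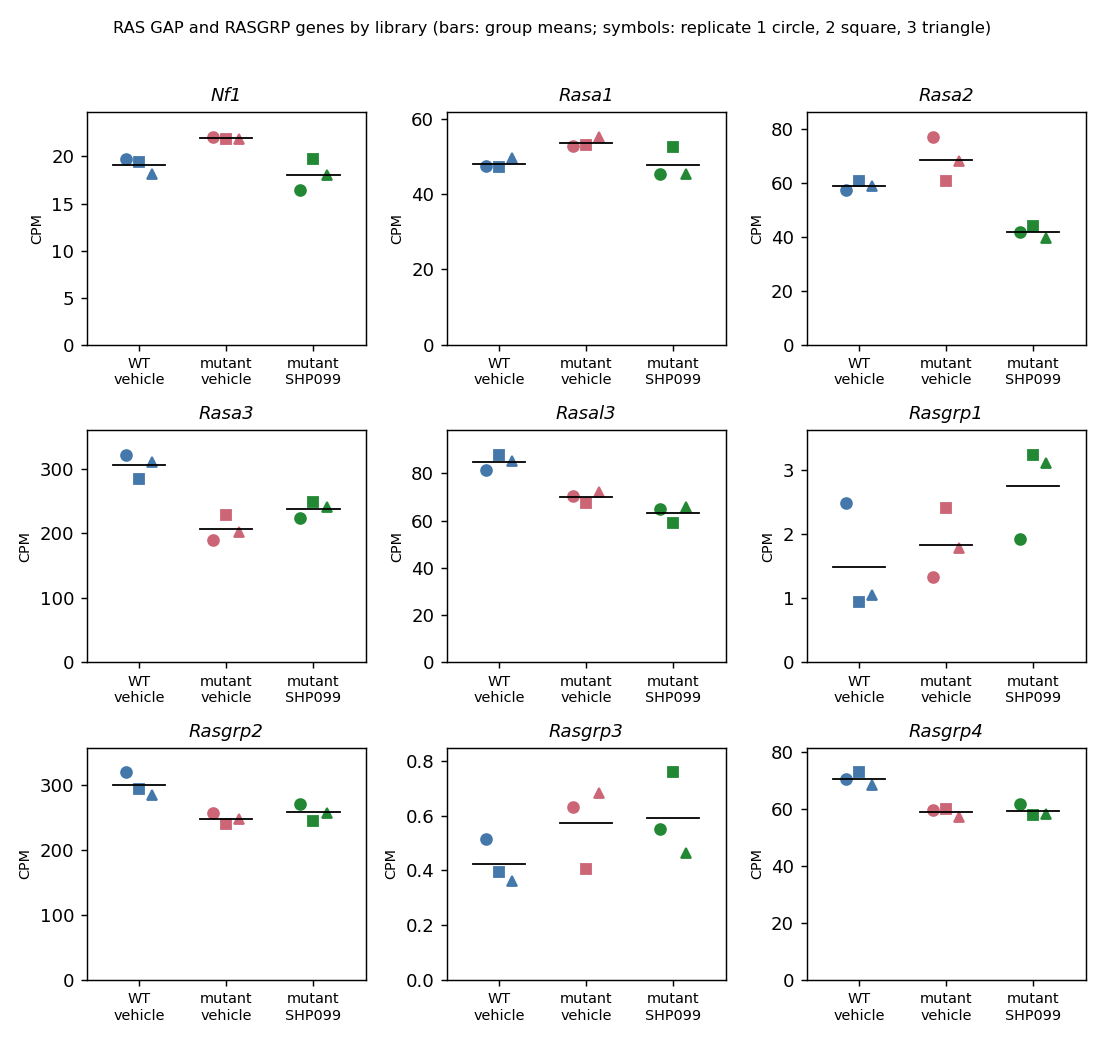
Level of each of the 9 genes in the 9 libraries, in CPM on a linear axis from 0 that differs between genes, with a point per library and a bar at each group mean. Rasa3 and Rasgrp2 are the highest and Rasgrp1 and Rasgrp3 the lowest in all 3 groups; SHP099-treated libraries lie below both other groups for Rasa2.

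The 9 genes are spread over the genome. On GRCm38 (GENCODE M21), Nf1 is at chr11:79339693-79581612, Rasa1 at chr13:85214780-85289130, Rasa2 at chr9:96539300-96631617, Rasa3 at chr8:13566948-13677603, Rasal3 at chr17:32390659-32403583, Rasgrp1 at chr2:117279993-117343001, Rasgrp2 at chr19:6399340-6415216, Rasgrp3 at chr17:75435896-75529054 and Rasgrp4 at chr7:29134851-29153961. Counts are given per gene symbol, so coding exons, UTRs and other parts of a gene are not told apart.

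The promoter windows of Rasa2, which fell with SHP099, and of Rasa3 and Rasal3, which were lower in mutant than in WT cells, are printed to show which short motifs they hold. Each runs from 250 bases before to 50 after a RefSeq start on GRCm38.p6, read 5′ to 3′ on the strand of the gene. Capitals mark matches on either strand to 8 motifs: the GATA motif spelled AGATAA or with a first letter T, the ETS motif CCGGAA, the RUNX motif TGTGGT, the E-box CACGTG, the CCAAT box, the SP1 motif GGGCGG, the CRE motif TGACGTCA and the C/EBP motif TTGCNNAA. The windows lie at chr9:96631454-96631753 (Rasa2, minus strand), chr8:13677538-13677837 (Rasa3, minus strand) and chr17:32403533-32403832 (Rasal3, minus strand).
Rasa2: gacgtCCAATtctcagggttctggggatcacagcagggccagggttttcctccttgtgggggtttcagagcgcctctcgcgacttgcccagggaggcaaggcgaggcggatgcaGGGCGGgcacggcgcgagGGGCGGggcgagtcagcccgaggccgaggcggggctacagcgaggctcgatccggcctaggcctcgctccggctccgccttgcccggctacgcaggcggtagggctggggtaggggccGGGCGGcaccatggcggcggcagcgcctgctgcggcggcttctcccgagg
Rasa3: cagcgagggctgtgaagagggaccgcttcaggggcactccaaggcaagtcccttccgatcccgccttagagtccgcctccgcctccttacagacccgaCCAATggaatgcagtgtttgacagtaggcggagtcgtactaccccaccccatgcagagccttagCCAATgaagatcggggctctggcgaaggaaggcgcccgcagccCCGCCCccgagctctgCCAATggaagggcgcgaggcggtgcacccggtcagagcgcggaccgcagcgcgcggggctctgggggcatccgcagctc
Rasal3: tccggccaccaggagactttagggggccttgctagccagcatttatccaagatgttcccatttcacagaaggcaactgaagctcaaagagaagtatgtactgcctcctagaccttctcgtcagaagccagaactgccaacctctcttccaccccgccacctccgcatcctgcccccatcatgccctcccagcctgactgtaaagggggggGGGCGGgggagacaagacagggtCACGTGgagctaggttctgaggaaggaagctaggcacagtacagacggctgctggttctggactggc
Rasa2 holds 1 CCAAT and 3 SP1 matches, Rasa3 holds 3 CCAAT matches and 1 SP1 match, and Rasal3 holds an E-box and an SP1 match. Of 32851 such windows over all genes, 37.4% hold CCAAT, 35.7% SP1, 7.15% the E-box, 18.6% GATA, 16.8% RUNX, 14.9% ETS, 10.8% C/EBP and 1.79% CRE, and a match is a description, not a known site. Windows were found for 8 of the 9 genes.

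SHP099 against vehicle in mutant cells asks how 24 h of SHP2 inhibition changes these genes. Rasa2 and Nf1 fell, and no other gene of the 9 passed the test: 0 of 9 rose, beside 8.81% of all genes tested, and 2 of 9 fell, beside 13% of all genes tested (edgeR quasi-likelihood test, Benjamini-Hochberg adjustment over all genes). At an unadjusted p under 0.05 the counts were 1 higher and 4 lower, and DESeq2 called 1 higher and 2 lower. The median log2 fold change of the 9 genes was 0.01, beside 0.00 for all genes tested. The shares of all genes given here belong to the edgeR fit over groups only. A block for each mutant culture pairs the vehicle and SHP099 library of a mouse. That fit called more genes in all, and 1 of 9 rose and 4 of 9 fell. Without SHP099 replicate 3, where fewer genes were called in all, the sole call was Rasa2.

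Rasa2, whose promoter window is among those printed, encodes a GAP for RAS that is recruited to the plasma membrane. Its levels were 77.0, 60.5 and 68.0 CPM in mutant vehicle replicates 1, 2 and 3, and 41.8, 43.9 and 39.7 CPM in the SHP099 libraries of the same cultures. WT libraries held 57.4, 60.5 and 58.7 CPM. Every SHP099 library lay below every vehicle library of either genotype, and vehicle replicate 2 of the mutant lay at the WT level. The log2 fold change with SHP099 was -0.71 ± 0.08 (SE, n = 3 libraries a group; edgeR adjusted p = 0.000529), a 1.64-fold fall. The fall was -0.88, -0.46 and -0.78 log2 units in cultures 1, 2 and 3. Without SHP099 replicate 3 it was -0.67 (edgeR adjusted p = 0.00405).

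Nf1 encodes neurofibromin, a large RAS GAP. It stood at 22.1, 21.8 and 21.9 CPM in mutant vehicle libraries and at 16.5, 19.7 and 17.99 CPM after SHP099, against 19.7, 19.4 and 18.1 CPM in WT libraries. The mutant vehicle libraries were close together and above all others, and SHP099-treated and WT libraries overlapped. The log2 fold change with SHP099 was -0.28 ± 0.07 (edgeR adjusted p = 0.0214), with log2 ratios of -0.42, -0.15 and -0.28 in cultures 1, 2 and 3. Leaving out mutant vehicle replicate 1, 2 or 3 ended the call (edgeR adjusted p = 0.0563, 0.0566 and 0.0689), and so did leaving out SHP099 replicate 1 or 3 (0.0846 and 0.0648).

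Nf1 has the longest transcript of the 9 genes, 11917 nt in its longest coding form, and 99% of the genes tested are shorter. The change with SHP099 moved with transcript length across all genes: of genes over 4000 nt, 25.6% were called lower and 2.25% higher, and among the longest genes, from 8042 to 123179 nt, 43.6% were called lower with a median log2 fold change of -0.22. After a smooth trend on length and GC content was removed from each library, Nf1 stood at -0.01 log2 units (edgeR adjusted p = 0.906), while Rasa2, with 5813 nt, stood at -0.59 (edgeR adjusted p = 0.00153). Genes close to Rasa2 in length, from 5647 to 6554 nt, had a median of -0.10 with 24.7% called lower. Where Rasa2 stands in length depends on the measure. Over all annotated exon sequence it has 15856 nt and Nf1 15850 nt, and the trend was not removed on that scale. The part of length in the change of Nf1 was not tested beyond these values.

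**Figure D2:**
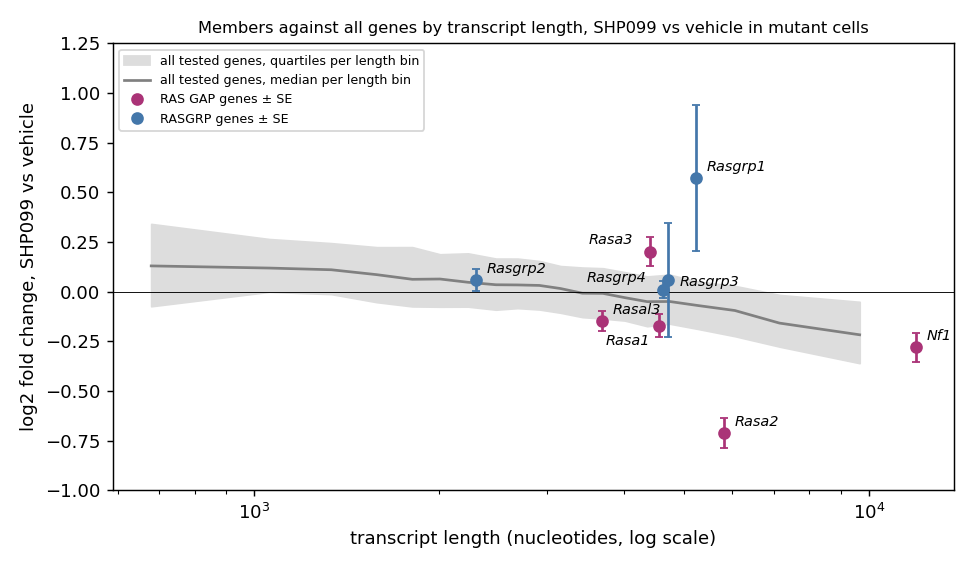
Change with SHP099 in mutant cells (log2 fold change) against the length of the longest coding transcript (nt, log axis), with the median and quartiles of all tested genes by bin of length and the 9 genes as named points. Nf1, at -0.28, lies near the median of genes of its length, -0.22 in the longest bin, and Rasa2, at -0.71, lies below the lower quartile of its bin, which is -0.22.

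Rasa1, Rasal3 and Rasa3 did not pass the threshold in the fit over groups, and each passed it in at least 1 alternative. Rasa1 encodes p120 RasGAP, whose SH2 domains bind phosphotyrosines on activated receptors. It stood at 52.9, 53.1 and 55.3 CPM in mutant vehicle libraries and at 45.3, 52.5 and 45.4 CPM after SHP099. The groups did not overlap, but culture 2 hardly differed, with a log2 ratio of -0.01 against -0.22 and -0.29 in cultures 1 and 3. Over the groups the difference was -0.17 ± 0.06 log2 units (edgeR adjusted p = 0.066; 0.0446 with the culture as a block). Without SHP099 replicate 2, the library of culture 2, the difference came to -0.23 (edgeR adjusted p = 0.0126). It came to -0.13 when SHP099 replicate 3 was left out (0.205).

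Rasal3, a GAP gene expressed mainly in blood cells, stood at 70.6, 67.5 and 72.3 CPM in mutant vehicle libraries and at 64.9, 58.9 and 65.9 CPM after SHP099. All SHP099 libraries lay below all vehicle libraries. Their difference was -0.15 ± 0.05 log2 units (edgeR adjusted p = 0.0629; 0.0259 with the block; 0.0776, at -0.18, without SHP099 replicate 3). Rasa3 encodes a GAP that acts on both RAS and RAP1. It stood at 189, 229 and 203 CPM in mutant vehicle libraries and at 224, 249 and 242 CPM after SHP099. The groups overlapped because vehicle replicate 2 was higher than SHP099 replicate 1, yet within each culture the SHP099 library was the higher, with log2 ratios of 0.24, 0.12 and 0.25. Over the groups it was 0.20 ± 0.08 log2 units (edgeR adjusted p = 0.0827). With the block its adjusted p was 0.0179, with the length trend removed 0.0486, with DESeq2 0.0282 and without mutant vehicle replicate 2, at 0.29, 0.0188. Without SHP099 replicate 3 it stood at 0.19 (edgeR adjusted p = 0.171).

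**Figure D3:**
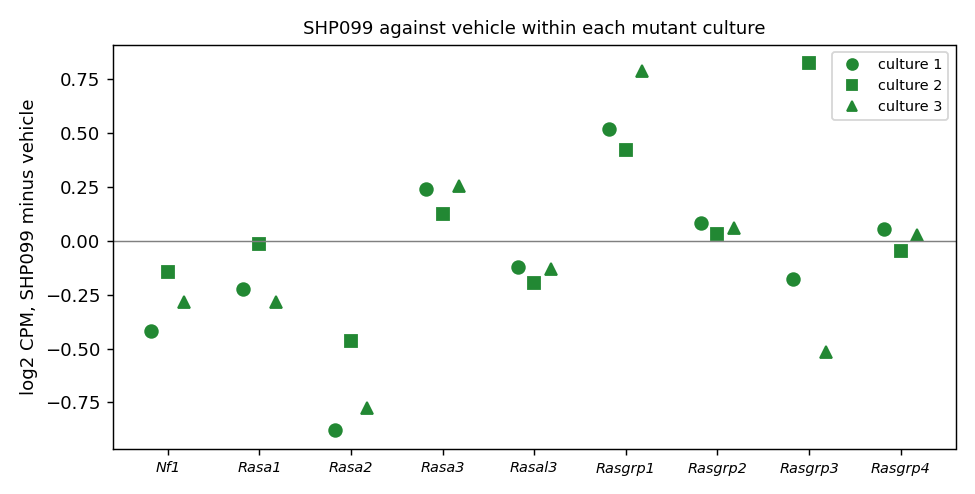
Log2 ratio of SHP099 to vehicle (on CPM) in each of the 3 mutant cultures, with a point per culture and gene; 0 is no difference. Rasa2 is below 0 in all 3 cultures, from -0.88 to -0.46, Rasa3 is above 0 in all 3, from 0.12 to 0.25, and Rasgrp3 runs from -0.52 to 0.82.

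None of the 4 RASGRP genes was called with SHP099 by edgeR, by DESeq2 or at an unadjusted p under 0.05. Rasgrp2, which encodes a calcium-regulated exchange factor for RAP1, stood at 257, 240.5 and 248 CPM in mutant vehicle libraries and at 272, 245 and 258 CPM after SHP099. Its log2 fold change was 0.06 ± 0.05 (edgeR adjusted p = 0.49). Rasgrp4, first described in mast cells, gave 59.6, 59.8 and 57.0 CPM with vehicle and 61.9, 57.8 and 58.0 CPM with SHP099. In both genes the groups overlapped. The log2 fold change of Rasgrp4 was 0.01 ± 0.04 (edgeR adjusted p = 0.887).

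Rasgrp1 and Rasgrp3, best known from T and B lymphocytes, were scarce, with 26 to 137 and 11 to 32 counts per library. Counting alone gives an error of 19.6% at the lowest count of Rasgrp1 and 30.2% at that of Rasgrp3. Rasgrp1 stood at 1.33, 2.41 and 1.78 CPM with vehicle and at 1.92, 3.25 and 3.11 CPM with SHP099, and at 2.49, 0.935 and 1.06 CPM in WT libraries. It was higher with SHP099 in each culture, by 0.52, 0.42 and 0.79 log2 units, and the 3 groups overlapped. The log2 fold change with SHP099 was 0.57 ± 0.37 (edgeR adjusted p = 0.299). Rasgrp3 lay between 0.361 and 0.758 CPM in all 9 libraries, with a log2 fold change of 0.06 ± 0.29 (edgeR adjusted p = 0.912). Without SHP099 replicate 3 the 4 RASGRP genes stood at 0.48 (Rasgrp1), 0.06 (Rasgrp2), 0.20 (Rasgrp3) and 0.03 (Rasgrp4) log2 units, and none was called (edgeR adjusted p = 0.482, 0.568, 0.714 and 0.763). In WT libraries Rasgrp1 had an SD of 0.862 CPM about a mean of 1.49 CPM, a wider spread than that counting error. With standard errors as large as those above, small differences in Rasgrp1 and Rasgrp3 could not be detected.

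Mutant against WT cells, both with vehicle, asks how the genotype relates to these genes. Loss of Tet2 and the Flt3 duplication come together in it and cannot be told apart here, and no WT cells were given SHP099. Rasa3, Rasal3, Rasgrp2 and Rasgrp4 were lower in mutant cells: 4 of 9 fell, beside 14.7% of all genes tested, and 0 of 9 rose, beside 16.9% (edgeR). At an unadjusted p under 0.05, 3 were higher and 4 lower, and DESeq2 called 0 higher and 4 lower. The median log2 fold change of the 9 genes was 0.16, beside 0.02 for all genes tested. The 4 calls were retained in each of the 16 alternatives run for this comparison, with a largest edgeR or DESeq2 adjusted p of 0.00467 for Rasa3, 0.0143 for Rasal3, 0.0181 for Rasgrp2 and 0.00876 for Rasgrp4.

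Rasa3 differed most of the 4 in log2 fold change. It stood at 322, 284 and 311 CPM in WT libraries and at 189, 229 and 203 CPM in mutant vehicle libraries. The lowest WT library was above the highest mutant library. The log2 fold change was -0.56 ± 0.08 (edgeR adjusted p = 0.000964), or 1.48-fold lower. In SHP099-treated mutant cells, at 224 to 249 CPM, the mean of Rasa3 lay between those of the other groups. These libraries overlapped the mutant vehicle libraries, and that difference was not called. Rasa3 was still below WT in them, by -0.36 ± 0.07 log2 units (edgeR adjusted p = 0.0066, and -0.39 with 0.016 without SHP099 replicate 3).

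Rasgrp2, which acts against RASA3 on RAP1 in platelets, was lower as well: 320.1, 295 and 285 CPM in WT libraries against 257, 240.5 and 248 CPM in mutant vehicle libraries. The groups did not overlap. Its log2 fold change was -0.27 ± 0.05 (edgeR adjusted p = 0.00532). Rasal3 stood at 81.6, 87.9 and 85.2 CPM in WT libraries and at 70.6, 67.5 and 72.3 CPM in mutant vehicle libraries, again without overlap, with a log2 fold change of -0.28 ± 0.05 (edgeR adjusted p = 0.00359). Of the exons of Rasal3, 635 of 4897 nt lie opposite an annotated antisense gene, and of those of Rasgrp2, 265 of 12384 nt lie opposite a noncoding gene; neither gene was analysed here.

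Rasgrp4 was at 70.6, 72.8 and 68.3 CPM in WT libraries and at 59.6, 59.8 and 57.0 CPM in mutant vehicle libraries, which lay below all WT libraries. Its log2 fold change was -0.26 ± 0.04 (edgeR adjusted p = 0.00188). Its exons share 978 of 6363 nt with Fam98c on the opposite strand, and the strand setting of the counting is not given in the sources used here, so reads of the overlapping stretch cannot be assigned with certainty. Fam98c had 418 to 640 counts per library, Rasgrp4 1887 to 2841, and the log2 fold change of Fam98c was -0.16 ± 0.07 (edgeR adjusted p = 0.115).

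The remaining GAP genes were not called between genotypes. Nf1 (0.20 ± 0.07, edgeR adjusted p = 0.0578) and Rasa1 (0.16 ± 0.06, 0.0722) had higher log2 levels in mutant cells with no overlap between groups, and Rasa2 (0.22 ± 0.08, 0.0557) had a higher mean with overlapping groups. Over the 16 alternatives these log2 fold changes ran from 0.055 to 0.229 (Nf1), 0.051 to 0.169 (Rasa1) and 0.095 to 0.285 (Rasa2). Of genes over 4000 nt, as these are, 21.9% were called higher and 14.6% lower between genotypes. Rasa1 stood at 47.7, 47.3 and 49.7 CPM in WT libraries. Rasgrp1 (0.30 ± 0.39, 0.584) and Rasgrp3 (0.43 ± 0.31, 0.321) were not called either.

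**Figure D4:**
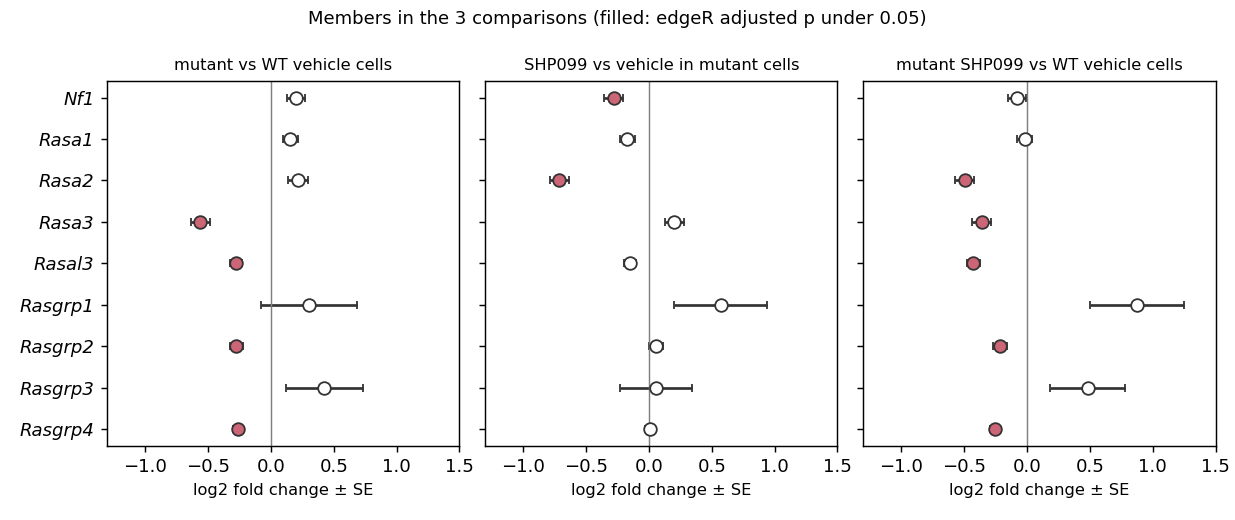
Log2 fold change of each of the 9 genes, with its standard error as a bar, in the 3 comparisons; filled symbols passed the edgeR threshold of 0.05. Rasa2 at -0.71 is the largest fall of the 9 genes with SHP099, and Rasa3, Rasal3, Rasgrp2 and Rasgrp4 lie below 0 in mutant against WT cells.

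Markers of other blood cell types differed between the same groups, as did Cd34 of the blast list, with a log2 fold change of 0.80 ± 0.09 in mutant against WT cells (edgeR adjusted p = 0.000419). Of 12 megakaryocyte and platelet markers, 12 were called lower in mutant vehicle than in WT cells, and their summed level was 4107 to 5200 CPM in WT, 1836 to 2549 CPM in mutant vehicle and 2249 to 3008 CPM in SHP099-treated libraries. Of 13 mast cell and basophil markers tested, 10 were lower in mutant vehicle cells, with a sum over 14 genes of 2298 to 2598, 1256 to 1733 and 1800 to 2282 CPM in the same order and Mrgprb2 at 0 in the mutant vehicle libraries. With SHP099, 2 of the 12 and 5 of the 13 were called higher. Mature neutrophil markers summed to 24340 to 30830 CPM in WT, 17840 to 18910 CPM in mutant vehicle and 25690 to 30690 CPM in SHP099-treated libraries, with 7 of 12 called lower and 1 higher by genotype and 4 higher with SHP099. Eosinophil markers summed to 559 to 632, 232 to 295 and 206 to 246 CPM in the same order, with 3 of 8 lower and 1 higher by genotype and 1 lower with SHP099. Monocyte and macrophage markers summed to 1079 to 1399, 1336 to 1615 and 1905 to 2080 CPM, with 3 of 11 higher and 1 lower by genotype and 3 higher with SHP099. The largest part of that sum was Ly6c2, with means of 766, 754 and 1148 CPM. T and NK cell markers summed to 124 to 142, 132 to 152 and 195 to 246 CPM. Most of that sum was Nkg7, with means of 110, 109 and 168 CPM, the marker called higher with SHP099. Of 4 tested, 1 was called higher by genotype and 1 higher with SHP099. Erythroid markers summed to 698 to 796, 706 to 743 and 647 to 701 CPM, with 6 of 7 lower and 1 higher by genotype, 1 lower with SHP099, and 4 haemoglobin genes at 0 in every library. Most of that sum was Tfrc, with means of 569, 660 and 583 CPM, the marker called higher by genotype and lower with SHP099. The part of all these markers in the levels of Rasa3, Rasgrp2, Rasal3 and Rasgrp4 was not tested. In bulk RNA, fewer cells of a type and less RNA per cell cannot be told apart.

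SHP099-treated mutant against WT vehicle cells shares libraries with both comparisons above, so its values are set beside theirs as a description. Of the 9 genes, 5 were lower, beside 16.3% of all genes tested, and 0 were higher, beside 15.4% (edgeR); 5 lower and 1 higher passed an unadjusted p under 0.05, and DESeq2 called 5 lower and 0 higher. The median log2 fold change of the 9 genes was -0.21, beside 0.00 for all genes tested. Rasa2 was below WT by -0.49 ± 0.08 log2 units (edgeR adjusted p = 0.00199), beside 0.22 in mutant vehicle cells, which was not called, and Rasal3 by -0.42 ± 0.05 (0.000613), beside -0.28 with vehicle. Rasgrp4 (-0.25 ± 0.04, 0.00238) and Rasgrp2 (-0.21 ± 0.05, 0.0156) were lower as well, beside -0.26 and -0.27 with vehicle. Without SHP099 replicate 3 these stood at -0.48 (Rasa2), -0.47 (Rasal3), -0.26 (Rasgrp4) and -0.23 (Rasgrp2) log2 units, all still called (edgeR adjusted p = 0.00815, 0.00178, 0.00912 and 0.0342). The call of Rasgrp2 was lost without SHP099 replicate 2 (edgeR adjusted p = 0.0563) and with the length trend removed (0.0545). Nf1 (-0.08 ± 0.07, 0.435) and Rasa1 (-0.02 ± 0.06, 0.868) were not called. Rasgrp1 (0.88 ± 0.38, edgeR adjusted p = 0.102) passed the threshold without WT replicate 1, its highest WT library, with 1.46 log2 units (0.0126). Rasgrp3 was not called (0.48 ± 0.30, 0.244).

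Genes that act with these 9 were followed as 7 lists: 63 genes tested, of which 16 fell and 1 rose with SHP099, beside 13% and 8.81% of all genes tested, with a median log2 fold change of -0.02. Without SHP099 replicate 3, 9 fell and 1 rose. Over the 9 fits that left out a library 9 to 14 fell, with 9 also without SHP099 replicate 2 and 10 without mutant vehicle replicate 1 or 3. With the length trend removed, 6 fell and 3 rose, and with the culture as a block 18 and 7. Of 11 partners of NF1 and RASA1, 6 fell, but 2 to 4 in each fit that left out a library (2 without SHP099 replicate 3) and 3 with the length trend removed. Among them were Spred1, Spred2 and Spred3, whose proteins bring neurofibromin to the membrane: Spred2 went from 28.3 to 18.5 CPM (-0.62 ± 0.07 log2 units, edgeR adjusted p = 0.000618), Spred1 from 42.6 to 31.2 CPM (-0.45 ± 0.09, 0.00941) and Spred3 from 2.76 to 1.70 CPM (-0.70 ± 0.17, 0.0158). These 3 calls were kept with the length trend removed (edgeR adjusted p = 0.00228, 0.0385 and 0.0251 for Spred2, Spred1 and Spred3). The call of Spred3 was lost in 4 of 9 fits that left out a library, those of Spred1 and Spred2 in 0. Of 8 other genes with a RAS GAP domain, 4 fell with SHP099: Iqgap1 (-0.23), Iqgap3 (-0.27), Rasal2 (-0.63) and Dab2ip (-0.52, all log2 fold changes). The count was 2 without mutant vehicle replicate 1 or 3 or SHP099 replicate 2 or 3. With the length trend removed none of the 4 passed the test, with log2 fold changes of -0.08 (Iqgap1), -0.16 (Iqgap3), -0.40 (Rasal2, edgeR adjusted p = 0.0746) and -0.36 (Dab2ip, 0.0831).

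The SOS exchange factor genes and the RAS genes Hras and Nras were not called with SHP099 in the fit over groups. Sos1 had a log2 fold change of -0.17 ± 0.06 (edgeR adjusted p = 0.0707; 0.0499 with the culture as a block; 0.607, at 0.04, with the length trend removed) and Sos2 of -0.07 ± 0.04 (0.266). Hras and Nras had log2 fold changes of -0.02 and 0.03 (0.823 and 0.686). The 1 gene of the lists that rose was Rras, from 4.98 to 7.04 CPM (0.49 ± 0.15, 0.0445), with overlapping groups and a call lost in 7 of 9 fits that left out a library. Of genes that supply or remove diacylglycerol, Dgkz and Dgkq, diacylglycerol kinase genes, fell, with log2 fold changes of -0.28 ± 0.05 (edgeR adjusted p = 0.0027) and -0.31 ± 0.07 (0.014, lost in 1 of 9 fits that left out a library).

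Between genotypes, 18 of the 63 were lower in mutant cells and 8 higher, beside 14.7% and 16.9% of all genes tested, with 15 to 19 lower and 4 to 7 higher over the fits that left out a library (4 higher without mutant vehicle replicate 2, 5 without WT replicate 3 or SHP099 replicate 2). Of 10 tested genes listed as other diacylglycerol effectors, 5 were lower, Unc13d (-0.35 ± 0.05, edgeR adjusted p = 0.00163) among them, and 1 higher. Prkca, a protein kinase C gene, fell from 120.3 CPM in WT to 62.2 CPM in mutant vehicle cells (-0.95 ± 0.12, edgeR adjusted p = 0.00084), and Prkcq from 64.7 to 34.1 CPM. Prkch, of the same kinase family, was higher (0.66 log2 units, edgeR adjusted p = 0.0345, lost in 5 of 9 fits that left out a library). Dgka, whose product removes diacylglycerol, went from 45.8 to 32.4 CPM (-0.50 ± 0.05, edgeR adjusted p = 0.000227). Dok2, whose protein binds RASA1, went from 102 to 63.9 CPM (-0.68 ± 0.05, edgeR adjusted p = 6.47e-05). Rap1b, which encodes the GTPase that RASGRP2 and RASA3 act on, went from 514 to 380.1 CPM (-0.44 ± 0.08, edgeR adjusted p = 0.00286).

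**Figure D5:**
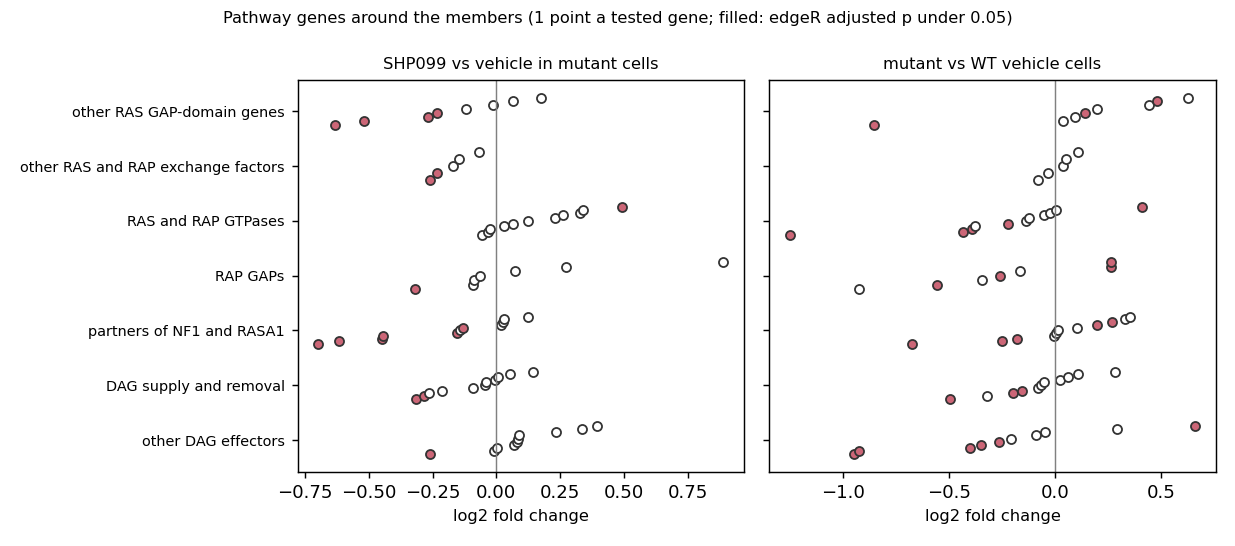
Log2 fold change of every tested gene of the 7 lists with SHP099 and in mutant against WT cells, with a point per gene, filled where edgeR called it. The 3 Spred genes lie between -0.70 and -0.45 with SHP099, and Prkca, at -0.95, and Dok2, at -0.68, are among the lower genes of mutant cells.

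The genes whose pattern over the 9 libraries was most like that of a called member were named by the smallest root mean square difference of mean-centred log2 CPM among 9626 genes, as a description with no test. For Rasa2 they were Zbed6 (0.0663), Fam208b (0.0697) and Srrm2 (0.0742), against 0.310 for the spread of Rasa2 about its own mean. For Nf1 they were Med13, Ccdc88a and Ascc3, at 0.0430 to 0.0563. For Rasa3 they were Zyx, Cds2 and Tmem40, at 0.0353 to 0.0559, and for Rasal3 Snx32, Tiam1 and Cdc42bpg, at 0.0387 to 0.0515. Rasgrp2 was most like Fbxo46, Rinl and Peli1, at 0.0352 to 0.0393, and Rasgrp4 most like Kctd10, Ehbp1l1 and Fbxo46, at 0.0201 to 0.0336.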

How the data were processed

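Per the labels' protocols, sequencing libraries were made from total RNA with the TruSeq stranded mRNA kit. FastQC, STAR, featureCounts, Subread and the build mm10 are named, without versions, in the submitters' processing notes. Which annotation and strand setting were used is not given in the sources used here. The table holds raw counts per gene symbol as deposited by the authors. The column of SHP099 replicate 3 differs from its sample title in the last character and was assigned as the sole sample of that genotype, number and treatment.

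The counts were fitted with edgeR 4.0.16 in R 4.3.3 (filterByExpr with minimum count 10; TMM; 1 quasi-likelihood fit with a mean per group over all 9 libraries; two-sided tests; Benjamini-Hochberg adjustment over 13270 genes; threshold 0.05). Another 11151 symbols were left out for low counts. Each log2 fold change has its standard error. CPM use TMM-scaled library sizes. Transcript lengths and coordinates come from the GENCODE M21 annotation of GRCm38 (mm10), and 23376 symbols had a length. The biological coefficient of variation was 9.04%. For the WT libraries, p-values measure the spread between samples that may be technical.

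Replicate numbers come from the titles. Same-numbered vehicle and SHP099 libraries deviated together from their group means, with correlations of 0.543, 0.596 and 0.561 over genes, while libraries of unlike number gave -0.359 to -0.227. The numbers therefore pair the mutant libraries. The series description says the mutant cultures came from individual mice. Between WT and mutant vehicle libraries of like number the correlations were -0.135 to -0.072, so those are not paired.

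The genes, the lists and the markers were chosen with earlier results of these data known. All 9 genes are named in every comparison. Of the pathway lists, up to 4 called genes per list with the smallest p, and partners of a gene described, could be named, and some that could be are not reported here. Alternatives were RLE scaling, DESeq2 1.42.0, other low-count filters, each library left out, the compared groups alone, removal of a length and GC trend (lowess span 0.3) and 2 replicate blocks. The scripts were tested on simulated data.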

Additional observations from a re-analysis of the deposited data

How the results depend on the processing

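With a replicate block pairing the vehicle and SHP099 libraries of the 3 mutant cultures, 5 of the 9 genes were called with SHP099 in place of 2. Over all genes that block gave 3598 calls in place of 2890. The block over all 9 libraries changed no member's call (2, 4 and 5 called). Leaving out a library gave 1 to 3 members called with SHP099, and 1767 to 2976 genes in all, the lowest without SHP099 replicate 3. Log2 fold changes near 0 turned sign: with SHP099, Rasgrp3 ran from -0.1456 to 0.2256 and Rasgrp4 from -0.0063 to 0.0421 over fits that left out a library, and in treated mutant against WT cells Rasa1 ran from -0.092 to 0.0203, while Nf1 stood at 0.0397 with the length trend removed. None of these was called in the fit reported. Rasa2 was called lower with SHP099 in all 18 alternatives, at -0.78 to -0.59. In mutant against WT cells, both with vehicle, Rasa2 passed the threshold as higher with no low-count filter (edgeR adjusted p = 0.0476). It also did so without mutant vehicle replicate 2 (0.0137), and Rasa1 passed as higher without SHP099 replicate 2 (0.0317). Rasgrp3 had no value with at least 1 CPM required in 3 libraries. The causes were not tested. Low counts, and for Rasgrp1 also the spread between libraries, limit what can be said of Rasgrp1 and Rasgrp3.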
